A study of Mus musculus with 6 samples.

Results

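The genes described here are Tgfb1, the cytokine transforming growth factor beta 1, and 9 genes that act with it: the related ligands Tgfb2 and Tgfb3, the receptors Tgfbr1 and Tgfbr2, the coreceptor Eng (endoglin), and the signal carriers Smad2, Smad3, Smad4 and Smad7. They are 10 of 30142 genes measured on 6 microarrays of mouse acute myeloid leukemia cells, 3 from Ppara-/- and 3 from Ppara+/+ leukemias. The members were chosen by function, with earlier results of these arrays known. Each was read from the row of the value table that is paired with its symbol alone, selected on the highest mean signal over the 6 arrays. Each of the 10 genes had 1 such row, so no choice between rows was made. Tgfb1 had already stood out on these arrays by its difference between the genotypes. That difference is therefore given as a description and is not independent evidence.

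Both groups of leukemias carried MLL-AF9, a fusion oncogene of acute leukemia, which was brought into cells by an MSCV retrovirus together with green fluorescent protein (GFP). The Ppara-/- and Ppara+/+ cells came from backcrossed mice with a disrupted or an intact Ppara gene. Its product is a fatty acid receptor of the nucleus. GFP-positive cells were sorted from marrow of secondary recipients, and the sources used here do not give the genotype of those recipients. Nothing in the labels says if replicates came from different primary leukemias or from several animals with the same one. The p-values therefore cover only the spread among these 6 samples. The comparison asks what loss of PPARA does to gene expression in the leukemia.

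TGF-beta ligands are secreted in a latent form, held by a propeptide, and act after they are released. The active ligand binds the receptor TGFBR2, which recruits and phosphorylates TGFBR1. TGFBR1 in turn phosphorylates SMAD2 and SMAD3, which join SMAD4 and enter the nucleus, while SMAD7 is induced by the signal and blocks the receptor. In marrow the pathway is known for restraining the division of blood stem and progenitor cells, and TGF-beta 1 is a cytokine that dampens immune cells.

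Values are log2 array signals, 1 per gene and array, and a difference is Ppara-/- minus Ppara+/+. Signals of different genes are not set against each other, because probes bind with different strength. Each gene is set against 5222 negative-control probe sets, whose median ran from 4.63 to 5.16 and whose 95th percentile ran from 7.91 to 8.23 on the 6 arrays. Ppara-/- replicate 2 and Ppara+/+ replicate 1 stood apart by the highest negative-control medians, 4.99 and 5.16, against 4.63 to 4.81 on the other 4 arrays. Of 12 leukocyte and myeloid markers 9 lay above the 95th percentile of the controls on every array, Ptprc, Itgam, Mpo, Elane and Cd33 among them. Kit lay above it on the 3 Ppara-/- arrays alone, Cebpa on 3 arrays from both genotypes and Hoxa10 on 0. These markers were read for myeloid identity and do not check the MLL-AF9 label. The signal of Ppara itself was 5.19 ± 0.12 for Ppara-/- and 5.08 ± 0.18 for Ppara+/+ arrays (SD, n = 3 each), near the negative controls, so its signal does not check the labels.

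None of the 10 members passed the test across all genes (limma, adjusted p of 0.211 or higher, threshold 0.05). Across all genes 0.126% were called (38 of 30142), with 0.0597% higher and 0.0664% lower in Ppara-/- leukemia. At an unadjusted p under 0.05 stood 3 members, Tgfb1, Eng and Smad3, against 5.78% of all genes. The difference of Tgfb1 was known beforehand, so its place in this count and the next is not independent evidence. In the same 3 genes the 3 arrays of one genotype lay wholly on one side of the other 3, as in 8.78% of all genes. Tgfb1 and Eng were on the lower side, as were 3.63% of all genes, and Smad3 on the higher side, as were 5.15%. In the other 7 members the genotypes overlapped. The median log2 difference of the 10 members was -0.07, with 6 negative and 4 positive, beside 0.02 over all genes, of which 42.7% were negative.

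**Figure D1:**
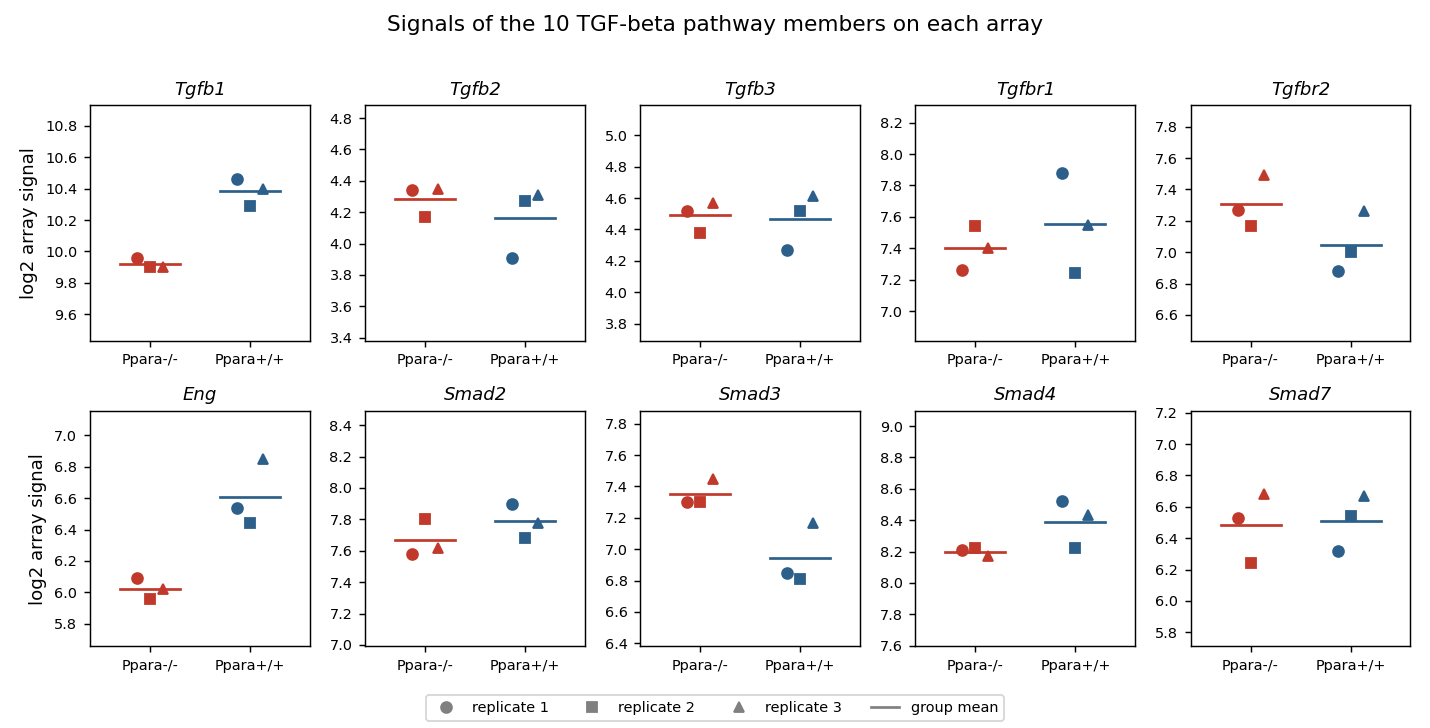
Log2 array signal of each member on the 6 arrays, with Ppara-/- on the left in red and Ppara+/+ on the right in blue, symbols for replicates and lines for group means; every panel spans the same range of log2 signal. The Ppara-/- values of Tgfb1 (9.90 to 9.96) and Eng (5.96 to 6.09) all lie below the Ppara+/+ values, those of Smad3 (7.30 to 7.45) all lie above, and the genotypes overlap in the other 7 genes.

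Among the ligands, Tgfb1 had log2 signals of 9.96, 9.90 and 9.90 in Ppara-/- leukemia, against 10.46, 10.29 and 10.40 in Ppara+/+ leukemia. The Ppara-/- arrays were nearly alike, and the highest of them lay 0.33 below the lowest Ppara+/+ array. The mean was 9.92 ± 0.03 in Ppara-/- and 10.38 ± 0.09 in Ppara+/+ cells (SD, n = 3 each), a signal ratio of 0.725. The log2 difference of -0.46 (SE 0.10, 95% interval -0.69 to -0.24) did not pass across all genes (limma, adjusted p = 0.211). An exact two-sided permutation test gave p = 0.1, which is as low as 3 arrays against 3 can reach. Tgfb1 ranked 171 of 30142 genes by its p. With array weights, which give noisier arrays less influence, it passed (limma, adjusted p = 0.0445, difference -0.42), in a fit that called 271 genes. Over its 18 alternative fits the adjusted p ran from 0.0445 to 0.960 and the difference from -0.51 to -0.34. The signal lay above the 95th percentile of the negative controls on all 6 arrays.

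Tgfb2 and Tgfb3, the ligands known mainly from mesenchymal and other non-blood tissues, gave signals under the negative-control median on every array. Tgfb2 had log2 signals of 4.34, 4.17 and 4.35 in Ppara-/- and 3.91, 4.27 and 4.31 in Ppara+/+ leukemia. Tgfb3 had 4.52, 4.38 and 4.57 in Ppara-/- and 4.27, 4.52 and 4.61 in Ppara+/+ leukemia. The genotypes overlapped in both, and at such signals a difference in RNA could be missed. The log2 differences were 0.12 (95% interval -0.18 to 0.42) for Tgfb2 and 0.02 (95% interval -0.25 to 0.30) for Tgfb3, and the sign turned in 1 other fit for Tgfb2 and in 5 for Tgfb3.

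Among the receptors, Tgfbr2, which binds the ligand first, had log2 signals of 7.27, 7.17 and 7.49 in Ppara-/- leukemia, against 6.88, 7.00 and 7.26 in Ppara+/+ leukemia. The groups overlapped only through Ppara+/+ replicate 3, which lay within the Ppara-/- range. The log2 difference was 0.26 (95% interval -0.04 to 0.57; limma, adjusted p = 0.968). Tgfbr1, the kinase that Tgfbr2 recruits, had log2 signals of 7.26, 7.54 and 7.40 in Ppara-/- and 7.88, 7.24 and 7.55 in Ppara+/+ leukemia. Its highest and its lowest value were both from Ppara+/+ arrays, and the log2 difference was -0.16 (95% interval -0.53 to 0.22; limma, adjusted p = 0.997). Without Ppara+/+ replicate 1 the difference of Tgfbr1 was 0.0050.

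Eng encodes endoglin, a coreceptor that binds ligand together with the kinase receptors and is known from endothelium, stem cells and activated macrophages. Its log2 signals were 6.09, 5.96 and 6.02 in Ppara-/- leukemia, against 6.54, 6.44 and 6.85 in Ppara+/+ leukemia. The Ppara-/- arrays lay close together, and the gap to the lowest Ppara+/+ array was 0.35. The mean was 6.02 ± 0.06 in Ppara-/- and 6.61 ± 0.21 in Ppara+/+ cells (SD, n = 3 each), a signal ratio of 0.666. The log2 difference of -0.59 (SE 0.13, 95% interval -0.87 to -0.30) did not pass (limma, adjusted p = 0.216; exact two-sided permutation p = 0.1). With array weights it passed (limma, adjusted p = 0.0451, difference -0.62), in the fit that called 271 genes. Over its 17 alternative fits the adjusted p ran from 0.0451 to 0.960. Every array was above the median of the negative controls and below their 95th percentile.

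Of the receptor-regulated Smads, Smad3 had log2 signals of 7.30, 7.30 and 7.45 in Ppara-/- leukemia, against 6.85, 6.81 and 7.17 in Ppara+/+ leukemia. Ppara+/+ replicate 3 came nearest to the Ppara-/- arrays, with a gap of 0.13. The log2 difference was 0.41 (SE 0.12, 95% interval 0.12 to 0.69), a signal ratio of 1.33, and it did not pass (limma, adjusted p = 0.528; exact two-sided permutation p = 0.1, n = 3 each). In no alternative fit did Smad3 pass, with adjusted p between 0.266 and 1. Smad2, the other Smad that TGFBR1 phosphorylates, had log2 signals of 7.58, 7.80 and 7.62 in Ppara-/- and 7.90, 7.68 and 7.78 in Ppara+/+ leukemia, with a difference of -0.12 (95% interval -0.37 to 0.13). The genotypes overlapped for Smad2.

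Smad4, the partner that both Smads share with the Smads of bone morphogenetic protein (BMP) signalling, had log2 signals of 8.21, 8.22 and 8.17 in Ppara-/- and 8.52, 8.22 and 8.43 in Ppara+/+ leukemia. The groups touched at 8.22, and the difference was -0.19 (95% interval -0.44 to 0.06; limma, adjusted p = 0.997). Smad7, the inhibitor that the pathway itself induces, had log2 signals of 6.53, 6.24 and 6.68 in Ppara-/- and 6.32, 6.54 and 6.67 in Ppara+/+ leukemia. The 2 ranges nearly coincided, with a difference of -0.03 (95% interval -0.36 to 0.30). Intervals that include 0 do not show that these genes had equal levels.

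**Figure D2:**
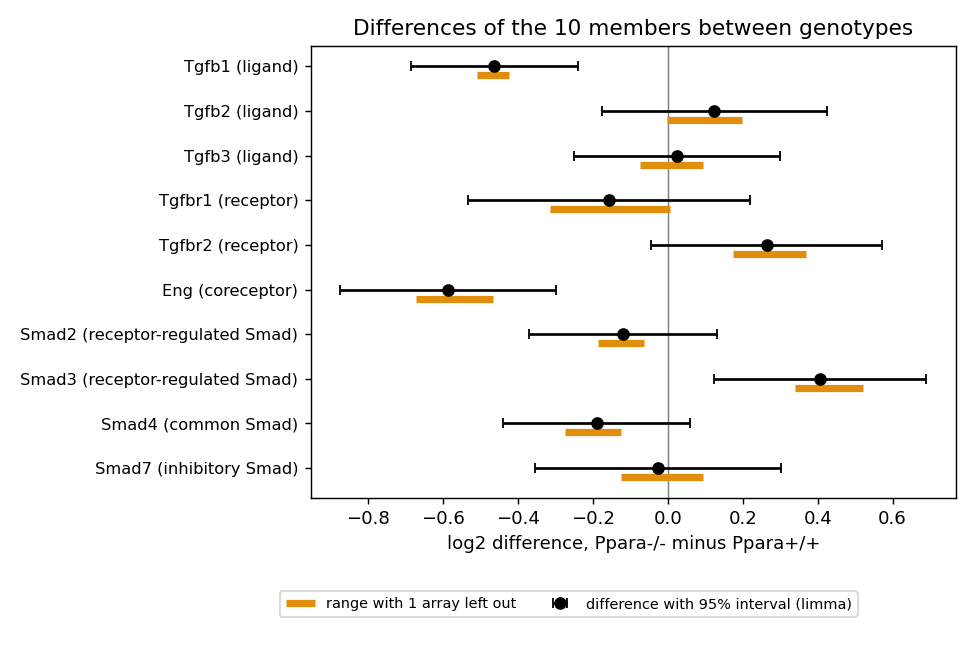
Log2 difference (Ppara-/- minus Ppara+/+) of the 10 members with the 95% interval from limma (black) and, in orange, the range of the difference when 1 array at a time was left out. The intervals of Tgfb1, Eng and Smad3 lie to one side of 0, and their orange ranges (-0.51 to -0.42, -0.67 to -0.47 and 0.34 to 0.52) do too.

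The sequence before the transcription start is shown for the 3 genes whose genotypes did not overlap, from the RefSeq promoter table of mouse build GRCm38.p6, which held 6 of the 10 members. Each is the 250 bases before the annotated start, 5′ to 3′ on the gene's strand. Capitals mark GC boxes (GGGCGG, the letters bound by SP1) and short Smad motifs (CAGAC, the letters bound by SMAD3 and SMAD4), on either strand, and no match of one overlapped a match of the other.
Tgfb1 at chr7:25686752-25687001, plus strand: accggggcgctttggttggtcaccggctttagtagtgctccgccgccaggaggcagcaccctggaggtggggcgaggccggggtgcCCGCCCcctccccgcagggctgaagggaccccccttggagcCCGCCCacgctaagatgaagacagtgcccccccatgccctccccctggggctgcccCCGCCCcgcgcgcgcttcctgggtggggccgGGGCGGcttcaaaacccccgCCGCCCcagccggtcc
Eng at chr2:32646345-32646594, plus strand: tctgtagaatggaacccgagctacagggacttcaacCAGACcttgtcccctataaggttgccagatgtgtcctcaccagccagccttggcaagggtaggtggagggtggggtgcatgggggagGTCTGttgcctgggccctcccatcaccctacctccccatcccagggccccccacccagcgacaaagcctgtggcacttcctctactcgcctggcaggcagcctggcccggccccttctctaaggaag
Smad3 at chr9:63757995-63758244, minus strand: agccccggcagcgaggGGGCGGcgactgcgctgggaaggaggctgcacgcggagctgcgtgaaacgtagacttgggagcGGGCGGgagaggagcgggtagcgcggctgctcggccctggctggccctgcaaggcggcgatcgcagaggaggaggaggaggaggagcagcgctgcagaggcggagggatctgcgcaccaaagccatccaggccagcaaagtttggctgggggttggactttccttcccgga
Tgfb1 held 5 GC boxes and 0 short Smad motifs, Eng held 0 and 2, and Smad3 held 2 and 0. The share of G and C was 75.2% in the Tgfb1 window, 62.4% in Eng and 69.2% in Smad3. Its median over all windows was 52.4%, and the counts were not adjusted for it. Of 32851 mouse promoter windows of this length 32.74% held a GC box and 42.19% a short Smad motif. The letters AGGTCA, the core of the sites bound by nuclear receptors such as PPARA, were in none of the 3 windows and in 14.02% of all windows. These are matches of letters in a short window, and no binding was measured.

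In 7 members the array with the highest negative-control median (Ppara-/- replicate 2 and Ppara+/+ replicate 1) was at the same extreme in both genotypes, as in 53.7% of all genes. These arrays had their genotype's highest signal of Tgfbr1, Smad2 and Smad4, a pattern found in 15.9% of all genes. They had its lowest signal of Tgfb2, Tgfb3, Tgfbr2 and Smad7, as in 37.8% of all genes. For Smad4 the Ppara-/- arrays differed by little, with 8.22 on replicate 2 against 8.21 on replicate 1. With the negative-control median as a covariate in limma, the log2 differences of these genes were -0.03 for Tgfbr1 (SE 0.09), -0.06 for Smad2 (SE 0.07), -0.15 for Smad4 (SE 0.08), 0.04 for Tgfb2 (SE 0.08), -0.04 for Tgfb3 (SE 0.08), 0.21 for Tgfbr2 (SE 0.12) and -0.12 for Smad7 (SE 0.10). The differences of Tgfb1 (-0.44, SE 0.08), Eng (-0.60, SE 0.12) and Smad3 (0.39, SE 0.12) stayed near their values without the covariate. None of the 10 passed in that fit, with adjusted p of 0.140 for Tgfb1, 0.206 for Eng and 0.411 for Smad3. Without those 2 arrays the log2 differences were -0.41 for Tgfb1 (limma, adjusted p = 0.340), -0.59 for Eng (limma, adjusted p = 0.389) and 0.39 for Smad3 (limma, adjusted p = 0.511).

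**Figure D3:**
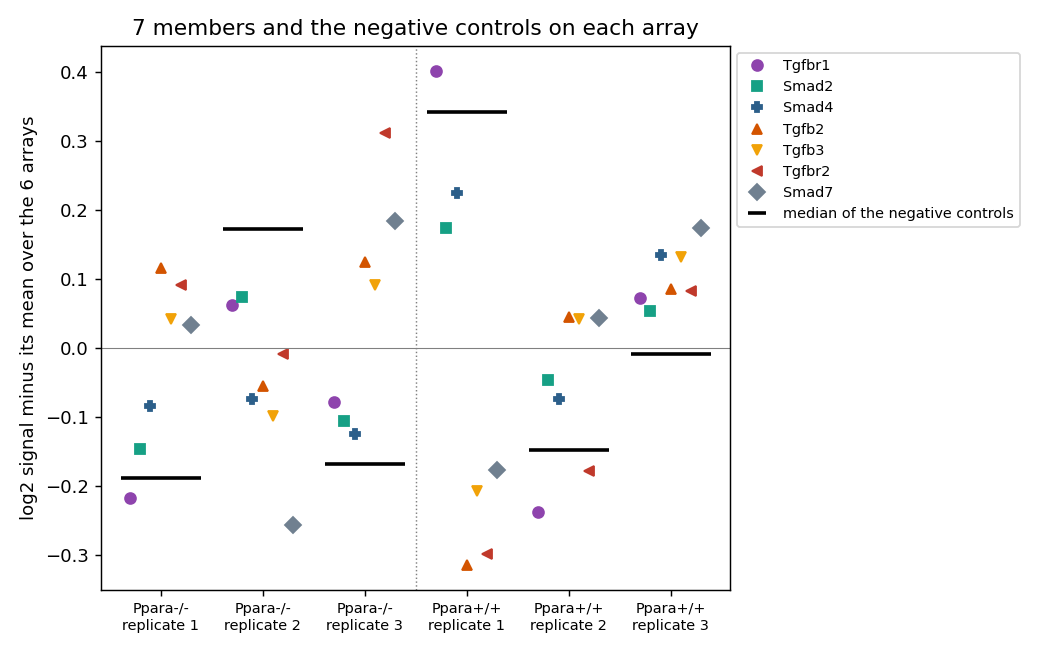
Log2 signal of 7 members and the median of the negative controls (black bars), each minus its own mean over the 6 arrays, with Ppara-/- arrays on the left and Ppara+/+ arrays on the right. Tgfbr1, Smad2 and Smad4 stand highest, and Tgfb2, Tgfb3, Tgfbr2 and Smad7 lowest, on Ppara-/- replicate 2 and Ppara+/+ replicate 1 within their genotypes. The 7 were picked for standing at the same extreme in both genotypes, as 53.7% of all genes do, and Tgfb1, Eng and Smad3 are left out.

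Around these 10 genes, 124 of 129 listed genes of the pathway were measured, and 0 passed in limma at an adjusted p under 0.05. At an unadjusted p under 0.05 stood 13 of the 124, beside 5.78% of all genes. Of these 4 were higher, beside 3.17% of all genes, and 9 were lower, beside 2.61%. Without overlap between the genotypes, 5 of the 124 lay higher, beside 5.15% of all genes, and 9 lay lower, beside 3.63%. The median log2 difference of the 124 genes was 0.01, beside 0.02 over all genes, and 61 were negative. Named below are the 2 genes of each role with the smallest p, a choice that favours genes whose genotypes do not overlap. Other genes are named as chosen after their values were seen.

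Ligand latency and activation covered the binding proteins and the integrins that free TGF-beta from its propeptide, and 0 of 17 passed. The integrin subunit Itgb3 had log2 signals of 6.91, 6.44 and 6.92 in Ppara-/- and 7.54, 7.14 and 7.38 in Ppara+/+ leukemia (difference -0.60; limma, adjusted p = 0.412). The integrin subunit Itgb5 had 7.92, 7.68 and 7.87 in Ppara-/- and 8.30, 7.99 and 8.34 in Ppara+/+ leukemia (difference -0.39; limma, adjusted p = 0.627). In these 2 of the 17 genes alone the genotypes did not overlap, beside 8.78% of all genes. Nrros, a protein that tethers latent TGF-beta 1 on myeloid cells, was singled out for that role after its values were seen. It was above the 95th percentile of the controls on all 6 arrays, at 9.46 ± 0.08 in Ppara-/- and 9.48 ± 0.23 in Ppara+/+ cells (SD, n = 3 each).

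Among the other receptors, which mostly serve activins and BMPs, 0 of 13 passed. The BMP receptor Bmpr2 had log2 signals of 5.09, 5.15 and 5.34 in Ppara-/- leukemia, against 6.78, 5.90 and 6.35 in Ppara+/+ leukemia. All 6 values lay above the negative-control medians and below their 95th percentile, and the log2 difference was -1.15 (SE 0.20; limma, adjusted p = 0.127). Bmpr1a, a kinase receptor for BMPs, had 4.80, 4.89 and 4.78 in Ppara-/- and 5.32, 5.41 and 5.99 in Ppara+/+ leukemia (difference -0.75; limma, adjusted p = 0.244). It was above the negative-control median on 5 of 6 arrays and above the 95th percentile on 0. The genotypes overlapped in neither gene. Of the 13 receptors 2 lay lower and 1 higher without overlap, beside 3.63% and 5.15% of all genes. The higher one, Bambi, was named after its values were seen (log2 difference 0.30; limma, adjusted p = 0.849). Bmpr2 passed with the trended and robust prior, with array weights and without Ppara+/+ replicate 2 (limma, adjusted p = 0.0499, 0.0136 and 0.0374), and Bmpr1a passed with array weights (limma, adjusted p = 0.0279). Those fits called 70, 271 and 35 genes, against 38 in the fit without these changes.

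Of the genes that regulate Smads, Zfyve9, which anchors SMAD2 and SMAD3 at the receptor, had 4.29, 4.05 and 4.29 in Ppara-/- and 4.60, 4.68 and 4.62 in Ppara+/+ leukemia, under the negative-control median on 5 of 6 arrays (log2 difference -0.42; limma, adjusted p = 0.330). The inhibitory Smad6 had a log2 difference of 0.10. The ubiquitin ligases Smurf1 and Smurf2, which mark Smads and receptors for breakdown, had log2 differences of 0.22 and -0.19 (limma, adjusted p = 0.898 and 0.997). The coactivator Ncoa3 had a log2 difference of -0.39 and the antiproliferative protein Tob1 one of 0.18 (limma, adjusted p = 0.779 and 0.997). Of the kinase branch, Map2k3 had a difference of 0.25 and Tab2 one of -0.24 (limma, adjusted p = 0.859 and 0.997). The ligands Gdf9 and Bmp1 (0.11 and 0.12) and the inhibitors Grem1 and Fkbp1a (0.19 and -0.14) had the smallest p of their roles, each at an adjusted p of 0.997 in limma.

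Of 28 measured TGF-beta target genes 0 passed, and 17 had a positive and 11 a negative difference. The widest log2 difference of the pathway list, -2.02, was in this role. The targets' median absolute difference was 0.087, beside 0.080 for the pathway list and 0.083 for all genes. Cdkn1c, the cell cycle inhibitor p57, had log2 signals of 7.76, 8.02 and 7.51 in Ppara-/- leukemia, against 6.64, 6.68 and 6.92 in Ppara+/+ leukemia. Its log2 difference of 1.02 (SE 0.15) had an adjusted p of 0.0626 in limma. It passed with the trended and robust prior, with the filter at the negative-control median and with array weights (limma, adjusted p = 0.0301, 0.0430 and 0.0110). Those fits called 70, 50 and 271 genes, against 38 in the fit without these changes.

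Cdkn1a, the cell cycle inhibitor p21, had log2 signals of 8.07, 8.27 and 8.62 in Ppara-/- leukemia, against 9.09, 8.92 and 9.52 in Ppara+/+ leukemia (difference -0.86; limma, adjusted p = 0.221). With array weights Cdkn1a passed (limma, adjusted p = 0.0407), in the fit that called 271 genes. The inhibitors Cdkn1c and Cdkn1a stood on opposite sides, each without overlap between the genotypes. Of the 28 measured targets 3 lay lower and 2 higher without overlap, beside 3.63% and 5.15% of all genes. The other 3 targets at an unadjusted p under 0.05 were named after their values were seen. The matrix proteins Fn1 and Tgfbi, which macrophages also make, had log2 differences of -2.02 and -1.35 (limma, adjusted p = 0.266 and 0.293), and the growth factor Vegfa had one of 0.29 (limma, adjusted p = 0.797). Fn1 varied widely within the genotypes, with 7.89, 6.98 and 8.70 in Ppara-/- and 10.79, 9.43 and 9.40 in Ppara+/+ leukemia.

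**Figure D4:**
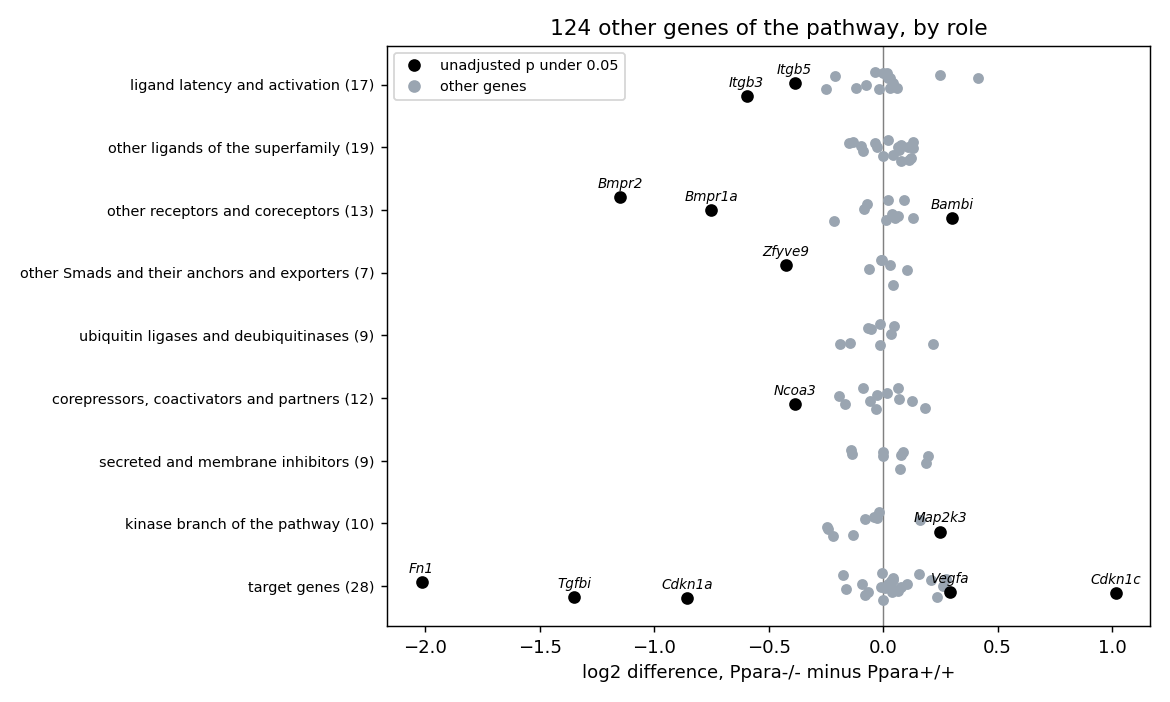
Log2 difference (Ppara-/- minus Ppara+/+) of 124 other genes of the TGF-beta pathway, 1 point a gene, in rows by role with the number of genes measured; height within a row carries no value. Black points with names are the 13 genes with an unadjusted p under 0.05, of which 9 lie left of 0 and 4 right, and no gene passed after adjustment over all genes.

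Tgfb1, Eng, Fn1 and Tgfbi are all also made by monocytes and macrophages, and the summed signal of 20 markers of those cells differed between the genotypes. The samples were sorted on GFP, which the retrovirus carries, so a clean sort would leave out the recipient's own macrophages and keep monocytic cells that descend from transduced cells. The purity of the sort is not given in the sources used here. In bulk samples, fewer cells of a type and less RNA per cell cannot be told apart. The summed log2 signal of 20 monocyte and macrophage markers was 137.42 to 141.96 on the Ppara-/- arrays and 147.88 to 150.86 on the Ppara+/+ arrays, without overlap. Of the 20 markers 14 had a negative difference and 10 lay lower without overlap, beside 3.63% of all genes. The 2 that passed, Clec4a1 and Vcam1, were both lower (limma, adjusted p = 0.00977 and 0.0364). Both lay below the 95th percentile of the controls on every array. Of the 20 markers 6 had a positive difference, the widest in Ccr2 (0.37), and 0 lay higher without overlap, beside 5.15% of all genes. The marker lists were drawn up with earlier results of these arrays known, so these counts are a description. Mrc1 and Ms4a7 were under the negative-control median on every array. The part of these cells in the values of Tgfb1, Eng, Fn1 and Tgfbi was not tested.

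Markers of other cell types were read in the same way. None of 9 T cell markers, 7 NK cell markers, 7 B cell markers and 8 megakaryocyte and platelet markers lay above the 95th percentile of the controls on all 6 arrays, a level that Eng itself reached on none. Their sums overlapped between the genotypes, with 42.00 to 42.74 in Ppara-/- and 40.66 to 43.07 in Ppara+/+ samples for the platelet markers. Of 13 endothelial and stromal markers 1, Pecam1, which myeloid cells also carry, lay above it on all arrays, and the sums overlapped. The sums of 9 dendritic cell markers overlapped too. Without overlap, 1 of 13 endothelial and stromal, 1 of 9 dendritic cell and 1 of 7 B cell markers lay lower, beside 3.63% of all genes. Of the T cell, NK cell and platelet markers 0 did, and in all these lists 0 lay higher, beside 5.15%. The lower ones were the stromal receptor Pdgfrb (log2 difference -1.03; limma, adjusted p = 0.0698), the dendritic cell lectin Cd209a (-0.77; limma, adjusted p = 0.225) and the B cell receptor subunit Cd79b (-0.40; limma, adjusted p = 0.615). Each lay below the 95th percentile of the controls on every array, and Cd209a was above their median on 5 of 6. Of the 12 leukocyte and myeloid identity markers, whose sums overlapped, 6 had a positive and 6 a negative difference. Without overlap 3 of these 12 were higher, beside 5.15% of all genes, and 0 were lower, beside 3.63%. The 3 were Kit, Csf3r and Hoxa10 (log2 differences 0.54, 0.37 and 0.35; limma, adjusted p = 0.546, 0.470 and 0.552). Pdgfrb, Cd209a, Cd79b, Kit, Csf3r and Hoxa10 were named after their values were seen. The part of any of these cell types in the members' values was not tested. The sums of 6 erythroid markers did not overlap, with 33.59 to 33.84 in Ppara-/- and 35.30 to 37.52 in Ppara+/+ samples. Without Car2, which passed as lower (limma, adjusted p = 0.00530), they did overlap, at 28.69 to 28.81 and 27.96 to 29.14.

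**Figure D5:**
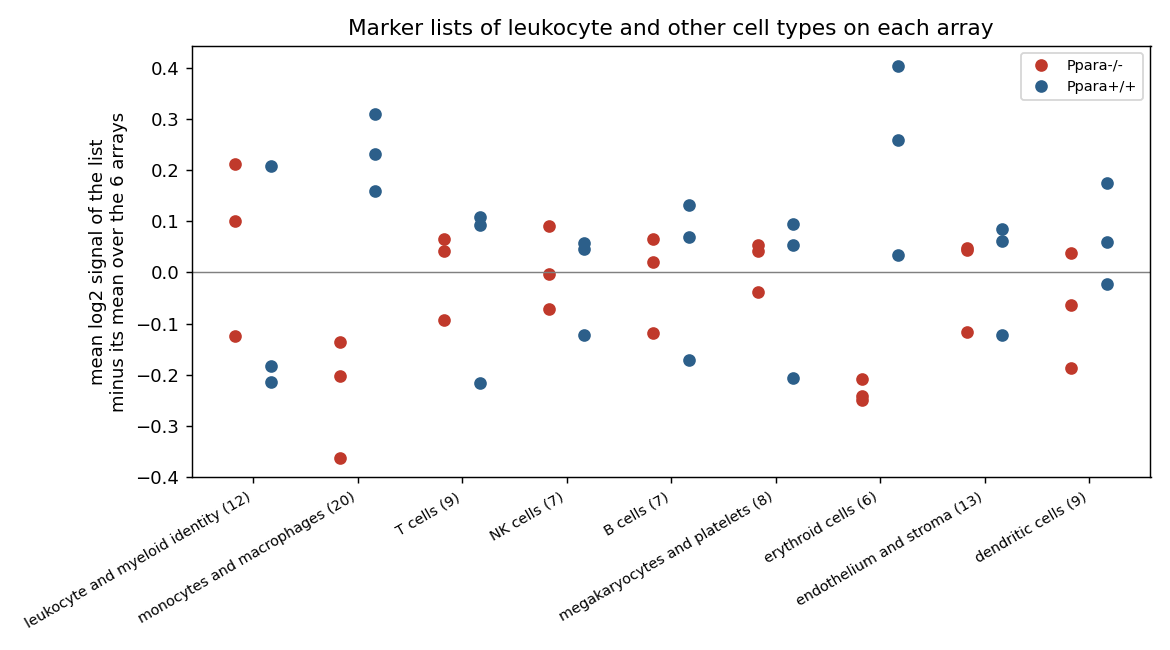
Mean log2 signal of each marker list on each array, minus its mean over the 6 arrays, with Ppara-/- arrays in red to the left and Ppara+/+ arrays in blue to the right; numbers in brackets are genes measured. The genotypes are apart in the monocyte and macrophage list and, through Car2, in the erythroid list, and overlap in the other 7 lists.

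The genes whose profile over the 6 arrays was most like that of Tgfb1 were sought among 3859 genes with a mean above the 95th percentile of the negative controls. By Pearson's r they were the proteasome subunit Psmb6 (r = 0.983), the endocytosis protein Necap2 (0.982), the MAP kinase phosphatase Dusp7 (0.980), the ubiquitin ligase subunit Rnf7 (0.977) and the MAP kinase kinase Map2k1 (0.975). The most opposed were the ARF GTPase regulator Acap1 (-0.983), Trim59 (-0.982), the metallothionein Mt2 (-0.975), the receptor kinase Grk6 (-0.962) and Fam160a2 (-0.958). These r values, each over 6 arrays that share the gap between the genotypes, are a description, and 71 genes had r over 0.9.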

How the data were processed

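RNA from sorted leukemia cells was labelled with biotin and hybridised to Affymetrix arrays, 3 per genotype, with groups and replicate numbers taken from the sample titles. The deposited values are log2 signals, for which the submitters' processing notes name RMA and limma, with no version or order. RMA usually normalizes arrays to a common distribution, which would remove a shift of most genes. The probe set IDs do not have the form used by the array model named in the design text, so model, annotation and genome build are uncertain, and the part of a gene that a probe set reads is unknown. The table had 72688 rows, of which 6732 were controls. Of the others 30604 were paired with 1 symbol, 2146 with several, and 33206 were unnamed here. Older symbols were updated through gene IDs with the RefSeq table of GRCm38.p6. The row with the highest mean stood for each of 30142 genes.

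The two-sided moderated test of limma 3.58.1 (R 4.3.3) was fitted to all genes without covariates. P-values were adjusted by Benjamini-Hochberg across the whole table, with a threshold of 0.05, and SEs and 95% intervals are the moderated ones. Single members were also compared by an exact permutation test. The fit was tested on simulated data. Python 3.11.15 with pandas 2.3.3 and matplotlib 3.10.9 made the tables and plots. The members and lists were chosen with earlier results of these data known. The text names all members, the 2 pathway genes of each role with the smallest p, and the 5 genes most like and most unlike Tgfb1. The alternatives were another prior, array weights, 3 normalizations, 2 filters on low signals, averaged probe sets, a replicate block, arrays left out, a covariate and another threshold. Counting symbols after updating them was added after the data were seen. The number of arrays limits the precision.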

Additional observations from a re-analysis of the deposited data

How the results depend on the processing

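Counts of called genes depended strongly on the processing. Against 38 genes in limma, the count was 70 with a trended and robust prior, 271 with array weights, 13 with arrays centred on the median of named genes, 23 with quantile normalization, 22 with arrays centred on the negative controls, 1 among genes above the 95th percentile of the controls, and 76 at an adjusted p under 0.1. It was 6 to 38 with 1 array left out, with 6 without Ppara-/- replicate 1, 17 without Ppara-/- replicate 2 or 3 and 13 without Ppara+/+ replicate 3. Without Ppara-/- replicate 2 and Ppara+/+ replicate 1 together limma called 0 genes, with 2870 at an unadjusted p under 0.05. Of the members 2 passed with array weights, Tgfb1 (-0.42) and Eng (-0.62), and 0 in the other settings run. Of the pathway genes 4 passed with array weights, 2 with the trended and robust prior, and 1 each with the filter at the negative-control median, without Ppara+/+ replicate 2 (0 to 1 over the arrays left out) and at an adjusted p under 0.1.

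The differences of Tgfb1, Tgfbr2, Eng, Smad3 and Smad4 kept their sign in every fit that held them. The sign turned for Smad2 with arrays centred on the negative controls (0.0033), and for Smad7 in that fit (0.10). With 1 array left out the differences ran from -0.12 to 0.10 for Smad7, from -0.075 to 0.095 for Tgfb3, from -0.0033 to 0.20 for Tgfb2 and from -0.32 to 0.0050 for Tgfbr1. The sign of Tgfb3 also turned with array weights (-0.036), with the covariate (-0.044) and without those 2 arrays (-0.020). Centring on the negative controls moved the median difference of all genes by 0.12, so relative to it the sign of Smad2 and Smad7 did not turn. The cause of the other changes was not tested.

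The labels do not say if equal replicate numbers pair samples of the 2 genotypes, and the values cannot settle it. The correlations of same-numbered arrays' deviations from their group means were -0.33, -0.47 and 0.11. The highest of all 9 pairs, 0.50, joined Ppara-/- replicate 2 with Ppara+/+ replicate 1. Those are the arrays with the highest negative-control medians, so a pairing of samples could be hidden in these correlations. With the replicate block 12 genes were called, 0 of them members or pathway genes, and Tgfb1 had an adjusted p of 0.543.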
